A study of Mus musculus with 15 samples.

Results

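The genes described here encode the chains of the collagens and the laminins, measured in the mouse testis. They were chosen by symbol alone from a table of 36118 genes: Col, a number, the letter a and a number, or Lama, Lamb or Lamc and a digit. This gave 55 genes, of which 44 encode collagen chains and 11 encode laminin chains. They were sorted by the type of chain into 11 fibrillar collagen chains, 17 basement membrane chains (6 of type IV collagen and 11 of laminin) and 27 other collagen chains. Of the 55, 53 had a mean normalised count of at least 10 over the 15 libraries and were tested, namely 11 fibrillar, 17 basement membrane and 25 other chains. The other two were Col9a2, with a mean of 7.05 and 2 libraries at 0, and Col10a1, with a mean of 0.547 and 11 libraries at 0.

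RNA was taken from whole testes of C57/BL6 mice in 5 groups of 3 libraries: Control, MTX, HMS-I1, AA and TSA. Strain and tissue were the same in all groups. The labels do not spell out the names of the 4 treatments and give no dose, route, duration or age, so the groups are called by their labels. For HMS-I1 the titles name 3 replicates, while the treatment field is HMS-I1 for replicate 1 and HMS-I2 or HMS-I3 for the others, so its n of 3 rests on the titles. The labels do not say whether the libraries of a group came from separate animals, and the p-values below measure only the spread between these libraries, which may be technical.

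A collagen is a trimer of chains that wind around each other, and each chain has its own gene. The fibrillar collagens, mainly types I and III, form the fibres of connective tissue between the seminiferous tubules and in the tunica albuginea, the capsule of the testis. Type IV collagen and the laminins, each laminin a trimer of an alpha, a beta and a gamma chain, form the sheets of basement membranes. In the testis such a sheet surrounds every seminiferous tubule, where it is made by Sertoli cells and peritubular myoid cells and carries the spermatogonia. The other collagens bind to the surface of fibrils, form beaded filaments or short networks, or span the cell membrane.

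The 15 libraries fell into 2 sets that do not follow the groups, and the class medians of each treatment against Control are also given within them. Of the 6 libraries in the first set, 2 were Control replicates (1 and 2) and the remaining 4 were the replicates numbered 1 of the treatments. The second set held the other 9 libraries. The split was made from 60 histone genes, whose mean log2(normalised count + 1) ran from 7.79 to 8.82 in the libraries of the first set, against 2.95 to 3.86 in those of the second. The labels name no batch. The value most often found among low genes lay between 1.98 and 2.62 in first-set libraries and between 0.453 and 0.917 in second-set libraries. It was shared by 65 to 202 genes a library. If it is near what 1 read is worth, low values in the first set rest on fewer reads, but read depth is not known. Cell type markers differed between the sets as well. The summed count of 12 Sertoli markers was 29196 to 31576 in first-set libraries and 44339 to 71940.29 in second-set libraries. That of 8 spermatid markers was 582420.35 to 857829 and 163392 to 385614. All 12 Sertoli, 7 Leydig and 8 spermatid markers passed the filter on low values, while 0 of 5 epididymis markers did and Lcn5 and Lcn8 were at 0 in all libraries.

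The chains were a small part of the testis RNA, and Col3a1, Col22a1, Col1a2 and Col1a1 together made up 47.5% of the chains' total. Together the 55 genes took 0.104% to 0.207% of a library's summed normalised count. Col3a1, the chain of type III collagen, made up 15.2% of the chains' own total, Col22a1 14.1%, Col1a2 11.1% and Col1a1 7.12%. Levels of different genes were compared per kb of their longest protein-coding transcript. On that scale, as a mean over the 15 libraries, Col3a1 led with 1265 normalised counts per kb, followed by Col1a2 with 962, Col22a1 with 741 and Col1a1 with 557. Col3a1 was above Col1a2 in 14 of 15 libraries, but Col1a2 was above Col22a1 in 9 of 15 only and Col22a1 above Col1a1 in 8 of 15, so the order of those neighbours was not fixed. The leading basement membrane chains were Col4a1 with 248 per kb, Col4a2 with 178 and the laminin chain Lamb2 with 175. Col4a2 was above Lamb2 in 9 of 15 libraries. Among tested chains the lowest were Col24a1 with 2.61 per kb, Col7a1 with 3.92 and Col6a6 with 4.73.

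**Figure D1:**
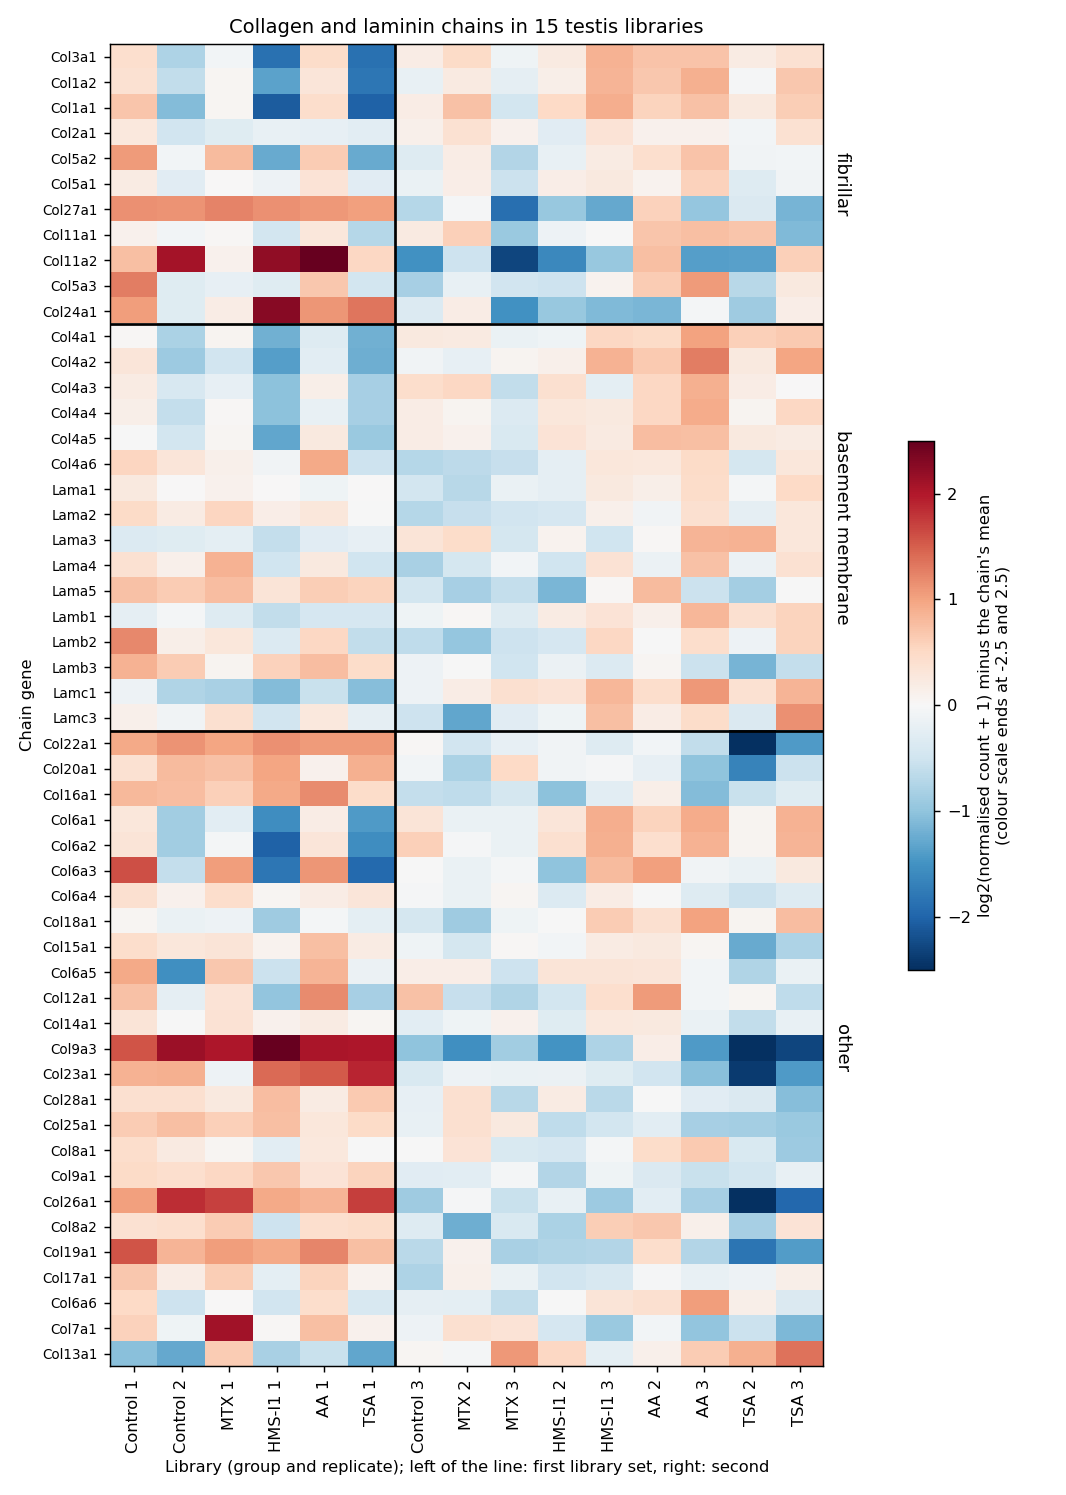
Heat map of tested chains (rows, by class) in the 15 libraries (columns, by library set and then by group and replicate). Colour is log2(normalised count + 1) minus the chain's mean over all libraries, with red above and blue below. Col9a3, Col26a1 and Col19a1 were red in all 6 libraries of the first set, and Col1a1, Col3a1 and Col6a2 were blue in HMS-I1 replicate 1 and TSA replicate 1.

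The chains of types I and III collagen, which make up the common fibres of connective tissue, had their highest group means in AA and their lowest values in 2 libraries of the first set. Values per library are normalised counts in the order of replicates 1, 2 and 3. Col3a1 was at 8332, 3639 and 7027 in Control, 5904, 8688 and 5740.0 in MTX, 1696, 7266 and 11398 in HMS-I1, 8534, 10213 and 10156 in AA, and 1706, 7182 and 8121 in TSA. Col1a2, the second chain of type I collagen, was at 6000.1, 2994 and 4061 in Control, 4749, 5412 and 3958 in MTX, 1812, 5064 and 8352 in HMS-I1, 5669.7, 7377 and 8537 in AA, and 1316, 4508 and 7377 in TSA. Col1a1, which supplies the other two chains of the type I trimer, was at 4567, 1319 and 3208 in Control, 2887, 4694 and 2039 in MTX, 664, 3954 and 5308 in HMS-I1, 3788, 4140.4 and 4647 in AA, and 691, 3324 and 4303 in TSA. HMS-I1 replicate 1 and TSA replicate 1 held the lowest values of all 3 genes, and the low values of Control came from replicate 2. The AA libraries were all above the Control libraries in Col3a1, by a narrow margin, and overlapped them in Col1a1 and Col1a2. In bulk tissue, fewer cells of a type and less RNA per cell cannot be told apart.

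Among the less abundant fibrillar chains, Col5a1, which helps to set the diameter of type I fibrils, had a narrow range. It was at 561, 403 and 438 in Control, 491, 548 and 338 in MTX, 450.1, 549 and 577 in HMS-I1, 622, 519 and 725 in AA, and 401, 391 and 457 in TSA. The AA libraries reached above the others, and the AA and Control ranges overlapped. Over the remaining fibrillar chains the mean ran from 18.6 for Col24a1 to 837 for Col2a1, the chain of cartilage type II collagen. Col27a1 lay between 296 and 343 in first-set libraries of every group and between 38.5 and 218 in second-set libraries.

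Type IV collagen has 6 chains that pair as neighbours on the chromosomes: Col4a1 with Col4a2, Col4a3 with Col4a4, and Col4a5 with Col4a6. The first pair forms the network found in all basement membranes, and the other chains form networks restricted to some tissues. Col4a1 was at 1525, 861 and 1781 in Control, 1582, 1741 and 1333 in MTX, 654, 1385 and 2141 in HMS-I1, 1196, 2087 and 3002 in AA, and 651, 2281 and 2362 in TSA. Col4a2 was at 1242, 536 and 948 in Control, 724, 879 and 1056 in MTX, 387, 1105 and 1855 in HMS-I1, 838, 1597 and 2463 in AA, and 431, 1192 and 1999 in TSA. AA replicate 3 was the highest library for both, HMS-I1 replicate 1 and TSA replicate 1 were the lowest, and the groups overlapped. Col4a3 was at 1019, 670.4 and 1204 in Control, 768, 1255 and 574 in MTX, 430.4, 1157 and 745 in HMS-I1, 979, 1256 and 1644 in AA, and 494, 1007 and 889.8 in TSA. Col4a4 was at 1403, 833 and 1426 in Control, 1282, 1329 and 989 in MTX, 620.4, 1526 and 1490.0 in HMS-I1, 1103, 1818 and 2416 in AA, and 709, 1320.4 and 1809 in TSA. These chains, whose mutation causes a kidney disease of the glomerular basement membrane, had their lowest values in the same libraries and their highest in AA replicate 3. Col4a5 was at 555, 406 and 638 in Control, 579, 601 and 429 in MTX, 228, 708 and 657 in HMS-I1, 663, 963 and 948 in AA, and 294, 662 and 646 in TSA. Col4a6 was at 201, 171 and 83.8 in Control, 151, 88.0 and 93.0 in MTX, 131, 118 and 170.3 in HMS-I1, 269.8, 167 and 194 in AA, and 96.1, 103 and 169 in TSA. In Col4a5 the 3 AA libraries lay above the 3 Control libraries, while in Col4a6 AA and Control overlapped and AA replicate 1 was the highest library.

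Laminins are named by their alpha, beta and gamma chains, and the alpha chain carries most of the binding to cell receptors. Lama1, an alpha chain of early epithelial basement membranes, was at 536, 457 and 329 in Control, 485, 279 and 401 in MTX, 453, 389 and 533 in HMS-I1, 418, 498 and 622 in AA, and 459, 439 and 641 in TSA. Lama2, the alpha chain of muscle basement membranes, was at 1546, 1266 and 678 in Control, 1596, 744 and 797 in MTX, 1238, 822 and 1208 in HMS-I1, 1341, 1039 and 1464 in AA, and 1104, 949 and 1352 in TSA. Lama3, an alpha chain of epithelia, was at 96.3, 98.8 and 152 in Control, 102, 167 and 89.4 in MTX, 80.0, 129.7 and 86.3 in HMS-I1, 99.2, 124 and 219 in AA, and 105, 222 and 148 in TSA. The groups overlapped for these 3 chains, and TSA replicate 2 and AA replicate 3 had the highest Lama3. Lama4, an alpha chain of vessel walls, was at 278, 236 and 122 in Control, 394, 158 and 204 in MTX, 151, 152 and 278 in HMS-I1, 254, 194 and 358 in AA, and 153, 194 and 279 in TSA. Lama5, the most widespread alpha chain of adult epithelia, was at 263, 246 and 115 in Control, 274, 88.6 and 105 in MTX, 200.1, 71.2 and 163 in HMS-I1, 244, 277 and 109.5 in AA, and 235, 87.3 and 157 in TSA. In first-set libraries Lama5 lay between 200.1 and 274, and in second-set libraries between 71.2 and 277.

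Of the beta chains, Lamb1 is the most widespread and Lamb2 replaces it in muscle and kidney basement membranes. Lamb1 was at 599, 677 and 649.7 in Control, 560.0, 716 and 554 in MTX, 453, 802 and 883 in HMS-I1, 518, 756 and 1232 in AA, and 521, 921 and 1028 in TSA. Lamb2 was at 2088, 999.98 and 587 in Control, 1099.9, 466 and 635 in MTX, 714, 684 and 1295 in HMS-I1, 1296, 897 and 1231 in AA, and 591, 833 and 1342 in TSA. Control replicate 1 had the highest Lamb2 of all libraries, so the spread within Control was wide. Lamb3, a beta chain of the laminin of skin-type epithelia, was at 180.3, 153 and 90.4 in Control, 104, 98.4 and 69.5 in MTX, 147, 89.1 and 77.8 in HMS-I1, 169, 103 and 67.5 in AA, and 136, 43.8 and 65.2 in TSA. It was higher in all 6 libraries of the first set than in any of the second. Of the gamma chains, Lamc1, part of most laminins, was at 510.1, 331 and 511 in Control, 317, 635 and 735 in MTX, 261, 708 and 991 in HMS-I1, 379, 757 and 1184 in AA, and 266, 731 and 1012 in TSA. Lamc3, a gamma chain known from the testis among other tissues, was at 773, 664 and 491 in Control, 926, 286 and 579 in MTX, 505, 649.8 and 1191 in HMS-I1, 847, 797 and 973 in AA, and 602, 548 and 1557 in TSA. Lamc1 was lower in all libraries of the first set than in any of the second, and Lamc3 was highest in TSA replicate 3.

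By normalised count, not scaled by length, the other collagens were led by 3 chains that attach to fibrils. Col22a1, a chain of tissue junctions such as that between muscle and tendon, was at 9929.7, 11224 and 5256 in Control, 10272, 3700.3 and 4516 in MTX, 11393, 4910.5 and 4161 in HMS-I1, 10908, 4930.5 and 3383 in AA, and 10841, 585 and 1939 in TSA. Col20a1 was at 1848, 2453 and 1354 in Control, 2345, 820.4 and 2005 in MTX, 2790.4, 1321 and 1382 in HMS-I1, 1522, 1230.2 and 699.8 in AA, and 2599, 444 and 968 in TSA. Col16a1 was at 2318, 2256 and 877 in Control, 2008, 848 and 975 in MTX, 2544, 647 and 1097 in HMS-I1, 2995, 1462 and 623 in AA, and 1815, 893 and 1069 in TSA. In all 3 the first set was high, and in Col22a1 and Col16a1 the sets did not overlap. TSA replicates 2 and 3 had the lowest Col22a1 of all libraries, while TSA replicate 1 was within the range of the other first-set libraries.

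No chain passed the test in any treatment against Control, in any pair of treatments or over the 5 groups. The test was limma on log2(normalised count + 1) with Benjamini-Hochberg adjustment over 17896 genes, and at an adjusted p under 0.05 it called 0 of 53 chains and 0 of 17896 genes (0%) in each of these 11 comparisons. At an unadjusted p under 0.05 it found 0 chains in MTX, where it found 0.548% of all genes, 0 in HMS-I1 (0.408% of all genes), 0 in AA (0.799%) and 3 in TSA (5.74%). This model has no term for the library set, so differences between the sets count as spread within groups. With that term, limma found 1 chain and 328 of 17896 genes at this unadjusted p in MTX. The counts were 0 and 219 in HMS-I1, 0 and 297 in AA, and 3 and 1351 in TSA. The 0 calls therefore do not show that levels were equal. The test of any difference among the groups gave its smallest p to Col8a1, at 0.0619. 3 TSA chains of 53 is a share close to that of all genes. What follows for each treatment is therefore a description of levels, with differences of group means on the log2(normalised count + 1) scale, which understates differences of low genes.

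**Figure D2:**
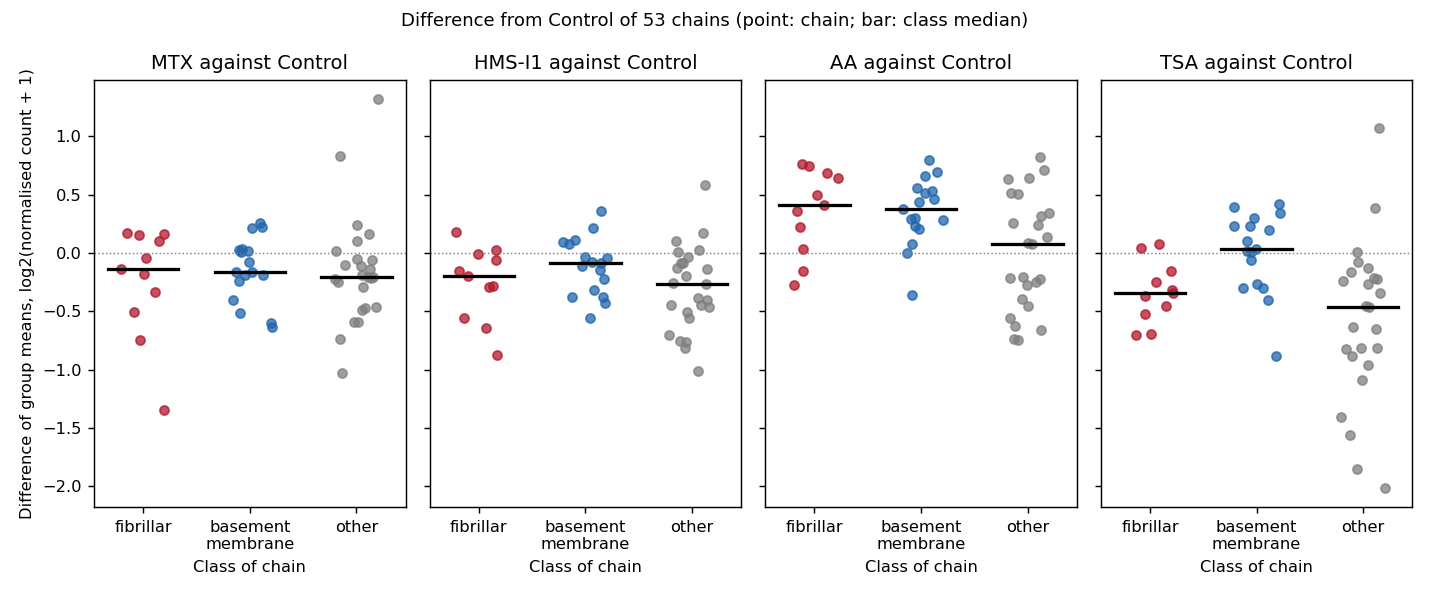
Difference of each treatment's mean from the Control mean, log2(normalised count + 1), for 53 chains by class. Points are chains and bars are class medians. In AA the fibrillar and basement membrane medians were 0.41 and 0.38, and in TSA the median of the other chains was -0.47.

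In AA most chains had a higher mean than in Control. Of 53 chains 37 were higher, with a median difference of 0.28, while 8471 of 17896 genes were higher with a median of -0.02. By class the count and median were 9 of 11 and 0.41 for fibrillar chains, 15 of 17 and 0.38 for basement membrane chains, and 13 of 25 and 0.08 for other chains. All 6 type IV chains were higher, by 0.43 to 0.79, as were 5 of 6 type VI chains with a median of 0.51 and 9 of 11 laminin chains with a median of 0.28. A fit with the library set as a term gave medians of 0.40 for fibrillar, 0.26 for basement membrane and 0.25 for other chains. In that fit 19 of 25 other chains were higher. Within the first set the medians of AA replicate 1 against Control were 0.39 for fibrillar, 0.02 for basement membrane and 0.13 for other chains. Within the second set they were 0.54, 0.60 and 0.25, against Control replicate 3 alone. The basement membrane chains were not alike in this. All 6 type IV chains were higher in AA in both sets, with medians of 0.15 in the first and 0.57 in the second. Of the laminin chains 4 of 11 were higher in the first set (median -0.06) and 10 of 11 in the second (median 0.76). With each library left out in turn, the AA median stayed between 0.31 and 0.55 for fibrillar and between 0.24 and 0.56 for basement membrane chains, and ran from -0.31 (without Control replicate 3) to 0.24 (without AA replicate 3) for other chains.

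Single chains in AA did not separate from Control by the test. Col4a5 differed by 0.69 (SE 0.43) with no overlap between the groups, and its adjusted p from limma was 1.00. Col4a2 differed by 0.79 (SE 0.63) and Col1a2 by 0.76 (SE 0.60), with overlap. Col6a6, a chain of a type VI collagen known from skin and muscle, was at 55.7, 27.3 and 33.8 in Control, 39.5, 33.1 and 25.3 in MTX, 27.9, 39.2 and 49.4 in HMS-I1, 53.9, 52.4 and 82.3 in AA, and 29.6, 43.6 and 30.5 in TSA. Its AA libraries were among the highest, 2 of them below Control replicate 1, and the difference was 0.71 (SE 0.39, limma adjusted p = 1.00). The difference of Col5a1 was 0.41 (SE 0.24, limma adjusted p = 1.00). Among chains lower in AA, Col25a1, a membrane-spanning collagen of neurons and muscle, was at 214, 231 and 120.4 in Control, 209.7, 182 and 162 in MTX, 232, 88.9 and 100.5 in HMS-I1, 168, 114 and 77.4 in AA, and 192, 75.9 and 72.3 in TSA. Its difference was -0.66 (SE 0.47) and that of Col20a1 was -0.74 (SE 0.59). In both the first-set libraries were the high ones in each group.

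Markers of several somatic cell types were higher in AA too. All 7 markers of interstitial fibroblasts had a higher mean than in Control, with a median difference of 0.51, and their summed count was 6556 to 11190 in AA (lowest to highest library) and 5507 to 7844 in Control. All 9 endothelial markers were higher with a median of 0.50, and their sum was 1243 to 2522 against 1076 to 1849. All 12 Sertoli markers were higher with a median of 0.36, and their sum was 31576 to 65309 against 29644 to 53550.15. Of 8 spermatid markers 6 were lower with a median of -0.45, and their sum was 216193 to 618443 against 384262 to 803055. All 4 mesothelial markers were higher with a median of 0.72 (sum 273 to 620.16 against 195 to 399.73), 6 of 7 Leydig markers with a median of 0.50 (37485 to 54725 against 27688 to 35003) and 7 of 8 macrophage markers with a median of 0.43 (4162 to 7879 against 4262 to 5184). Of 9 adipocyte markers 5 were higher, with a median of 0.01, and their sum was 1539 to 2159 against 707 to 7108. Control replicate 1 had the highest Adipoq, Fabp4, Plin1 and Lep of all libraries, at 1013, 1895, 210 and 121. In that library 11 of 11 fibrillar, 12 of 17 basement membrane and 24 of 25 other chains were above their own mean over all libraries. Peritubular myoid and smooth muscle markers were higher in 7 of 8 (median 0.29, and -0.08 with the library set as a term), spermatogonial markers in 7 of 8 (0.37, and 0.12) and spermatocyte markers in 1 of 6 (-0.16, and -0.19). Control holds 2 first-set libraries and AA holds 1, and these markers differ between the sets. With the library set as a term the medians became 0.18 for fibroblast, 0.13 for endothelial, -0.02 for Sertoli, 0.30 for mesothelial, 0.37 for Leydig, 0.17 for macrophage and -0.25 for spermatid markers. Within the first and the second set they were 0.10 and 0.55 for fibroblast, 0.06 and 0.27 for endothelial and 0.08 and 0.06 for Sertoli markers, of which 7 of 12 were higher in each set. They were 0.32 and 0.67 for mesothelial, 0.21 and 0.69 for Leydig, -0.12 and 0.42 for macrophage, -0.99 and 1.64 for adipocyte and -0.13 and -0.54 for spermatid markers. None of the 4 marker lists named first had a marker at 0 in any library, none of the lists had a marker that passed the adjusted threshold, and their part in the differences of the chains was not tested.

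**Figure D3:**
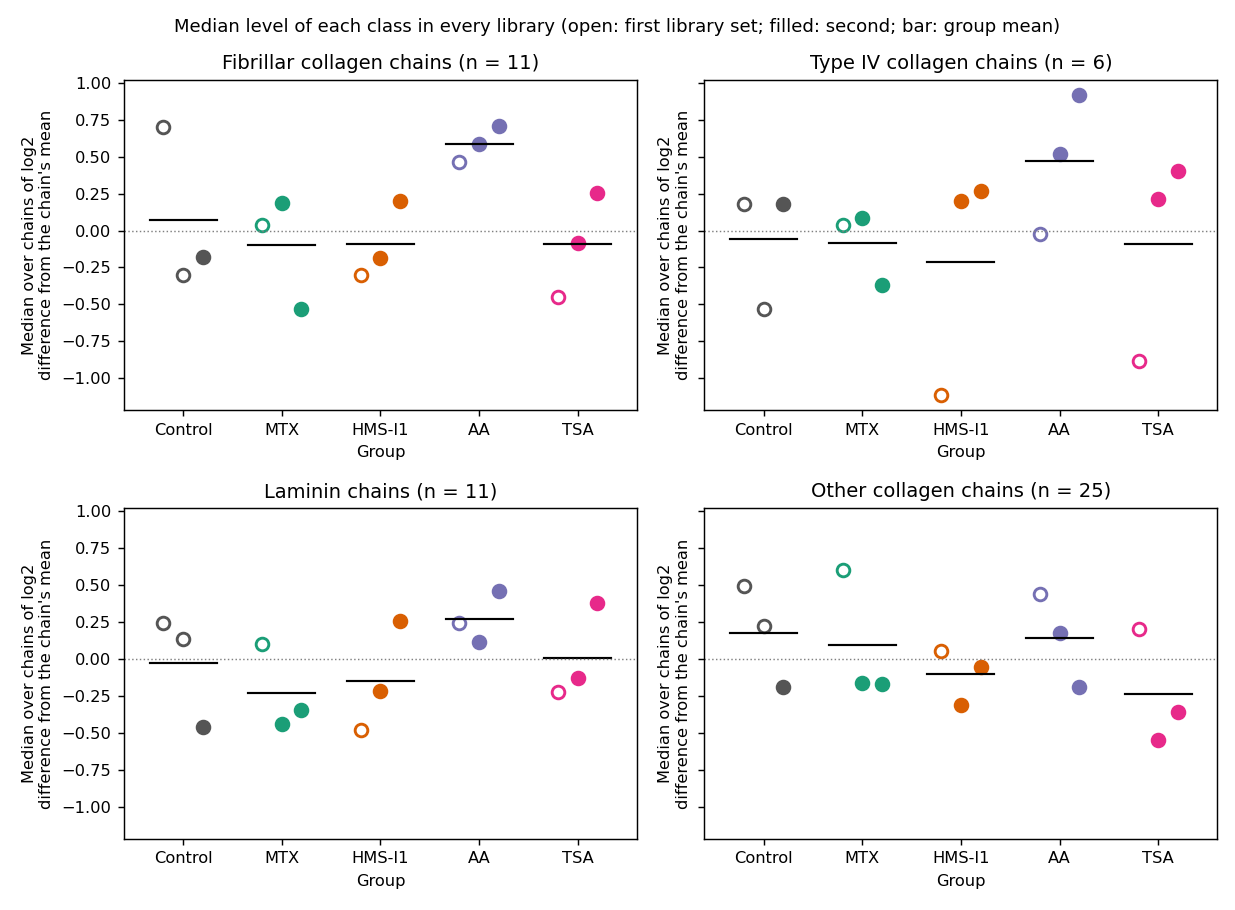
Median over the chains of a class of log2(normalised count + 1) minus each chain's own mean, for every library (y axis), by group (x axis). Open points are libraries of the first set, filled points the second, and bars are group means. The 3 AA libraries lay at 0.46, 0.58 and 0.71 for the fibrillar chains, and the type IV chains were lowest in HMS-I1 replicate 1 (-1.11) and TSA replicate 1 (-0.88).

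In TSA most of the other collagens had a lower mean than in Control, and most basement membrane chains did not in the main fit. Of 25 other chains 22 were lower with a median difference of -0.47, and of 11 fibrillar chains 9 were lower with a median of -0.35. Of 17 basement membrane chains 11 were higher with a median of 0.03. Over all genes tested 8846 of 17896 were lower, with a median of 0.01. A fit with the library set as a term gave medians of -0.28 for fibrillar, -0.07 for basement membrane and -0.43 for other chains. In that fit 11 of 17 basement membrane chains were lower, among them all 6 type IV chains. The fibrillar and basement membrane values turned with the library set. Within the first set, TSA replicate 1 against Control gave medians of -0.91 for fibrillar, -0.61 for basement membrane and -0.14 for other chains, and within the second set TSA replicates 2 and 3 gave 0.12, 0.58 and -0.51. With each library left out in turn, the TSA median of the other chains was between -0.73 and -0.30, and that of the basement membrane chains was -0.22 without TSA replicate 3 and 0.32 without TSA replicate 1. The fibrillar median was -0.62 without TSA replicate 3 and -0.02 without Control replicate 1. In the first and second set marker medians were 0.01 and -1.23 for spermatid, 0.01 and 0.34 for Sertoli, and -0.34 and 0.90 for Leydig. They were -0.43 and 0.62 for macrophage, -0.61 and -0.09 for fibroblast, and -0.15 and 0.19 for endothelial. They were -1.67 and 0.24 for adipocyte, -1.12 and -0.28 for mesothelial, and -0.06 and 0.04 for myoid. Spermatogonial markers had 0.31 and 0.45, and spermatocyte markers 0.13 and -0.43. The markers' part in these differences was not tested.

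The 3 chains with an unadjusted p under 0.05 in TSA all belonged to the other collagens. Col22a1 differed by -1.86 (SE 0.84, unadjusted p = 0.0465), and its values above show that this came from TSA replicates 2 and 3. Col15a1, a collagen that ties basement membranes to the tissue below and is found around vessels and muscle, was at 815, 731 and 556 in Control, 749, 437 and 606 in MTX, 632, 569 and 691 in HMS-I1, 1008, 704 and 619 in AA, and 686, 249 and 351 in TSA. TSA replicates 2 and 3 were the lowest of all libraries, and the difference was -0.82 (SE 0.35, unadjusted p = 0.0350). Col8a1, a short-chain network collagen of vessel walls, was at 180.5, 156 and 133 in Control, 137, 169 and 103 in MTX, 110.4, 98.7 and 128 in HMS-I1, 159.5, 183 and 211 in AA, and 131, 103 and 70.6 in TSA. All TSA libraries were below all Control libraries, the highest by a narrow margin, with a difference of -0.65 (SE 0.29, unadjusted p = 0.0453). limma's adjusted p was 0.871 for all 3. Without TSA replicate 1, 2 chains of 53 passed the threshold, Col15a1 and Col22a1, both lower, and 5.54% of all genes passed. That fit compares second-set TSA libraries with a Control group mostly of the first set, so TSA and the library set cannot be told apart in it. With the library set as a term and TSA replicate 1 left out, Col22a1 and Col26a1 passed, as did 5.64% of all genes. On the second set alone, where the lone Control library is assumed to vary like the other groups, limma called 0 chains, with 4 at an unadjusted p under 0.05, as had 8.07% of all genes. These counts were no larger a share of the chains than of all genes.

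**Figure D4:**
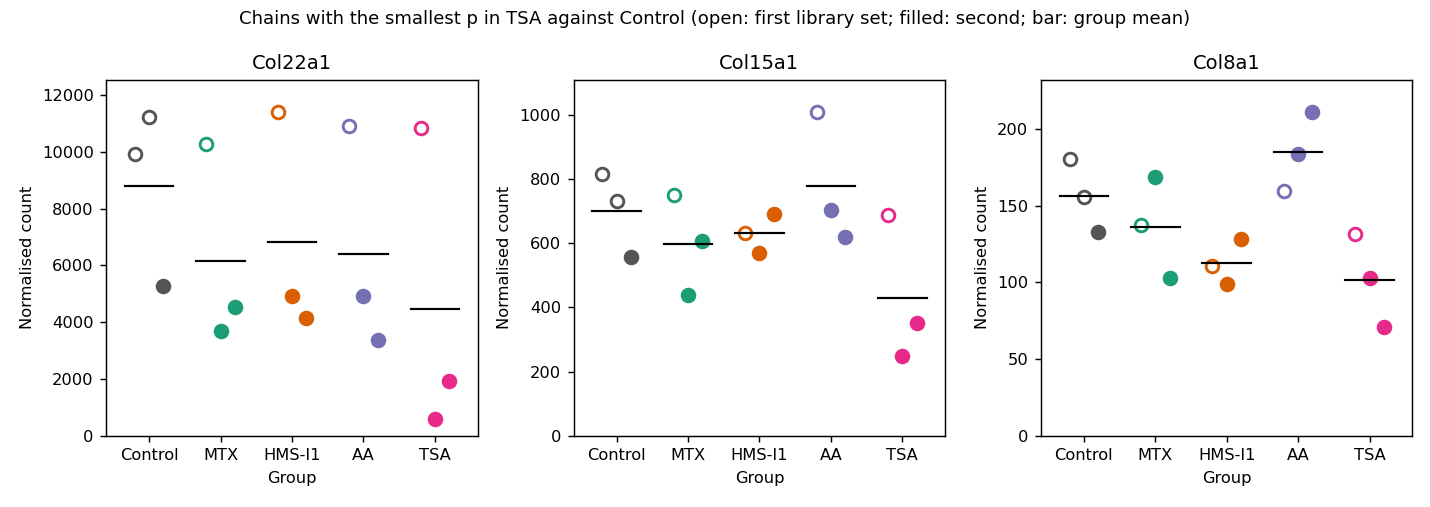
Normalised counts of Col22a1, Col15a1 and Col8a1 (y axis, from 0) in every library by group (x axis). Open points are libraries of the first set, filled points the second, and bars are group means. TSA replicates 2 and 3 had the lowest Col22a1 (585 and 1939) and Col15a1 (249 and 351) of the 15 libraries.

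Set against the other 7 libraries of the second set, TSA replicates 2 and 3 were lower without overlap in 8 of 53 chains, and 12.1% of all genes tested were. They were higher without overlap in 0 chains, and 3.58% of all genes were. Of the 8 chains, 7 were other collagens and 1, Lamb3, was a laminin chain. Col22a1 was at 585 and 1939 against 3383 to 5256. Col26a1 was at 14.6 and 21.4 against 45.8 to 84.2, and Col9a3, a chain of the cartilage fibril-associated type IX collagen, was at 13.2 and 23.8 against 40.8 to 135. Col23a1, Col19a1, Col15a1 and Col25a1 were the remaining 4. The set of chains was read off these libraries, so it is a description with no test. Spermatid markers had a summed count of 163392 and 245009 in the same 2 libraries, which overlapped the 216193 to 385614 of the other 7. Set against Control replicate 3 alone, all 8 spermatid markers had a lower mean in these 2 libraries, with a median difference of -1.23. Acrv1 was at 1019 and 2226 against 5594 to 9073, and Tnp2 at 16079 and 26813 against 37750 to 83911, without overlap. Prm1 and Prm2 overlapped. The sum of Sertoli markers was 71653 to 71940 in these 2 and 44339 to 65309 in the other 7. The share of these markers in the low values of the chains was not tested.

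MTX and HMS-I1 gave small class medians, and within the library sets several of them had the opposite sign. In MTX 17 of 53 chains were higher, with a median of -0.17, and 8573 of 17896 genes were higher with a median of -0.01. The class medians were -0.14 for fibrillar, -0.16 for basement membrane and -0.21 for other chains. Within the first set they were 0.05, 0.06 and 0.08, and within the second 0.01, -0.13 and -0.02. Without Control replicate 1 the fibrillar median in MTX became 0.24. The smallest p was that of Col13a1, a membrane-spanning collagen of the junction between nerve and muscle, which was at 12.3, 10.3 and 27.3 in Control, 41.5, 25.6 and 57.3 in MTX, 14.7, 38.0 and 22.2 in HMS-I1, 17.7, 28.9 and 41.3 in AA, and 10.1, 49.8 and 69.1 in TSA. MTX was higher by 1.32 (SE 0.68, limma adjusted p = 1.00), and the groups overlapped.

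Col7a1, which forms the anchoring fibrils below epithelia, was at 45.9, 28.2 and 27.5 in Control, 133, 40.1 and 38.7 in MTX, 30.9, 22.5 and 15.4 in HMS-I1, 51.8, 29.0 and 14.8 in AA, and 32.6, 20.4 and 13.4 in TSA. MTX replicate 1 was far above all other libraries, and the mean of MTX differed from Control by 0.83 (SE 0.58). Col12a1, a chain on the surface of type I fibrils, was at 742, 384 and 739 in Control, 567, 299 and 265 in MTX, 225, 326 and 595 in HMS-I1, 1018, 934 and 425 in AA, and 251, 465 and 287 in TSA. Its difference from Control was -0.74 (SE 0.46) in MTX and -0.75 (SE 0.46) in HMS-I1, with overlap in both. That of Lamb2 in MTX was -0.64 (SE 0.47). limma's adjusted p was 1.00 for each of these.

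In HMS-I1 12 of 53 chains were higher, with a median of -0.20, and 8571 of 17896 genes were higher with a median of -0.02. The class medians were -0.20 for fibrillar, -0.09 for basement membrane and -0.26 for other chains. Within the first set, HMS-I1 replicate 1 gave -0.46, -0.65 and -0.25, with 0 of 17 basement membrane chains above the mean of the Control libraries. Within the second set, replicates 2 and 3 gave 0.33, 0.37 and -0.0033. Col8a1 was lower than in all Control libraries in all 3 HMS-I1 libraries, with a difference of -0.47 (SE 0.29, limma adjusted p = 1.00). Col13a1 and Col5a1 had the smallest p among higher chains, with differences of 0.58 (SE 0.68) and 0.18 (SE 0.24).

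Between treatments, the comparisons with AA held most of the chains at an unadjusted p under 0.05. These were 6 chains in TSA against AA, where 4.14% of all genes had such a p. There were 3 in AA against MTX (1.7% of all genes), 2 in AA against HMS-I1 (1.25%), 1 in HMS-I1 against MTX (0.609%), 1 in TSA against MTX (5%) and 0 in TSA against HMS-I1 (2.71%). In TSA against AA the smallest unadjusted p was that of Col8a1, with a difference of -0.89 (SE 0.29, limma adjusted p = 1.00) and no overlap. Col15a1 differed by -0.95, Col12a1 by -1.20, Col5a1 by -0.57, Col6a6 by -0.84 and Col5a3 by -1.09. In AA against MTX all 17 basement membrane chains had a higher mean in AA, with a median of 0.45, and in AA against HMS-I1 all 17 did with a median of 0.53, where the medians over all genes were 0.00 and 0.01. These 2 comparisons share the AA libraries. Without TSA replicate 1, Col15a1 passed the threshold in TSA against AA, lower in TSA, as did 3.44% of all genes. With the library set as a term and no library left out, 0 chains passed it. At an unadjusted p under 0.05 that fit had 13 of 53 chains and 1969 of 17896 genes in TSA against AA. The counts were 8 and 1025 in AA against MTX, 5 and 820 in AA against HMS-I1, and 1 and 387 in HMS-I1 against MTX. They were 6 and 2420 in TSA against MTX, and 3 and 1420 in TSA against HMS-I1.

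Several pairs of chains varied less in their ratio from library to library than in their levels. The ratios that follow are log2 ratios of normalised counts with their SD over the 15 libraries, and they carry no test. Col6a1 and Col6a2, chains of the beaded filaments of type VI collagen, had SDs of 0.77 and 0.86 in level and an SD of 0.17 in their ratio. Col3a1 and Col1a2, which belong to different trimers, had SDs of 0.86 and 0.77 and a ratio SD of 0.23. A low ratio SD was thus not particular to chains that share a trimer. For Col4a3 and Col4a4 the level SDs were 0.55 and 0.53 and the ratio SD 0.28, for Col4a1 and Col4a2 they were 0.66 and 0.78 and 0.31, and for Col1a1 and Col1a2 they were 0.98 and 0.77 and 0.34. Col6a3, the third chain of the type VI trimer, did not keep to Col6a1, with a ratio SD of 0.77. For Col5a1 and Col5a2, of type V collagen, the ratio SD of 0.54 lay between the level SDs of 0.29 and 0.70.

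**Figure D5:**
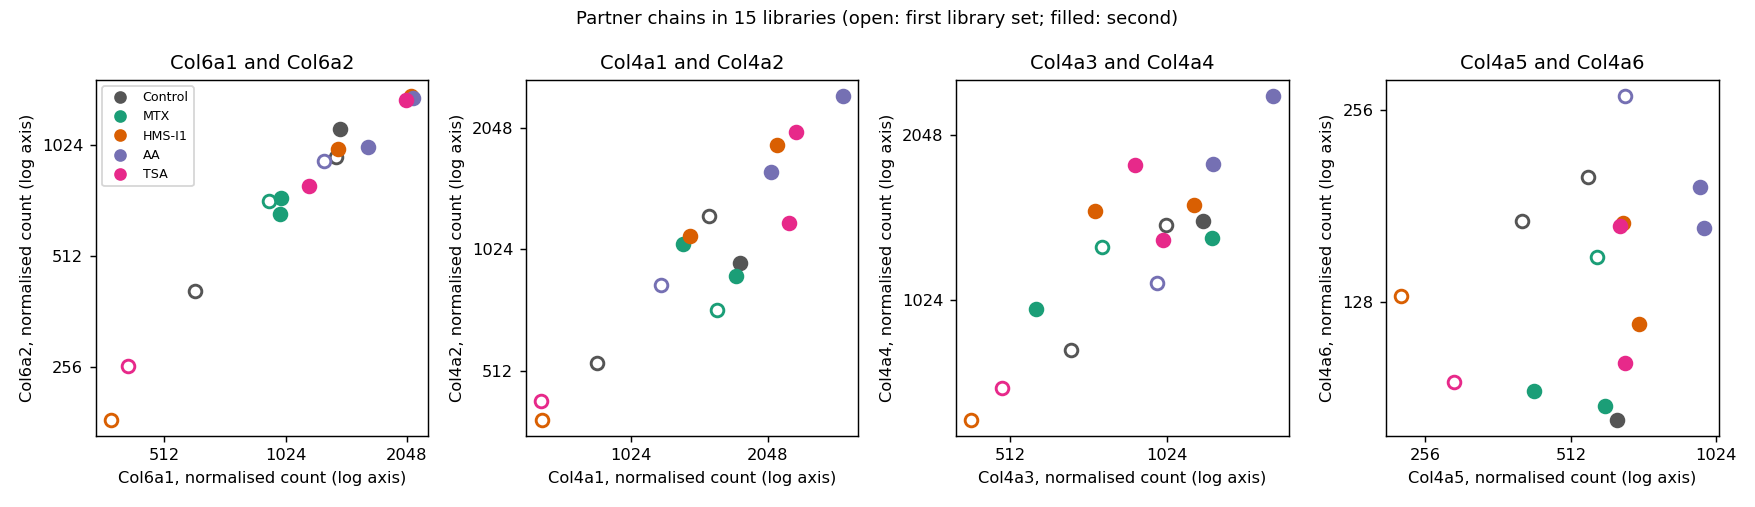
Normalised counts of 4 pairs of partner chains, one point per library, both axes on a log scale. Colours are groups, open points the first library set and filled points the second. Col6a1 and Col6a2 lie near a line (ratio SD 0.17 on the log2 scale), and Col4a5 and Col4a6 do not (ratio SD 0.63).

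Among the type IV pairs Col4a5 and Col4a6 were the exception. Their level SDs were 0.56 and 0.50, and the SD of their ratio was larger than either, at 0.63. The ratio differed by library set, with a median of 1.38 over first-set libraries and 2.52 over second-set libraries. Its lowest value was 0.80 in HMS-I1 replicate 1 and its highest 2.91 in Control replicate 3. Over all libraries, laminin chains kept their ratios less well than the first 2 type IV pairs. The ratio SD was 0.42 for Lamb1 to Lamc1, 0.83 for Lamb2 to Lamc1 and 0.87 for Lama2 to Lamc1. These ratios differed by library set too. Their medians over first-set and second-set libraries were 0.81 and 0.06 for Lamb1, 1.68 and 0.19 for Lamb2, and 1.99 and 0.31 for Lama2. The SDs over all libraries therefore include a difference between the sets. The ratio SD of Lamb3 to Lamc3, at 0.87, was larger than the level SDs of 0.58 and 0.59.

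The start regions of the Col4a1 and Col4a2 pair and of the Col4a5 and Col4a6 pair are shown because both pairs lie head to head, and the distance between their starts differs. They are the RefSeq windows of 250 bases before and 50 after each gene's start on GRCm38.p6, written 5′ to 3′ on the gene's own strand. Capitals mark CCAAT or GGGCGG on either strand (ATTGG and CCGCCC are the same motifs on the other strand).
Col4a1 (chr8:11312777-11313076, minus strand): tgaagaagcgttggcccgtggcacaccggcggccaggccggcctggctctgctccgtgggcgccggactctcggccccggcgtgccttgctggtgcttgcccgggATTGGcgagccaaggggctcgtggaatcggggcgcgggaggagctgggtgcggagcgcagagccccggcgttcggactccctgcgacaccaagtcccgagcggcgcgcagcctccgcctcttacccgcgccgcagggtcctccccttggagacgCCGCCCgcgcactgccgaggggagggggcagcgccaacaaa
Col4a2 (chr8:11312555-11312854, plus strand): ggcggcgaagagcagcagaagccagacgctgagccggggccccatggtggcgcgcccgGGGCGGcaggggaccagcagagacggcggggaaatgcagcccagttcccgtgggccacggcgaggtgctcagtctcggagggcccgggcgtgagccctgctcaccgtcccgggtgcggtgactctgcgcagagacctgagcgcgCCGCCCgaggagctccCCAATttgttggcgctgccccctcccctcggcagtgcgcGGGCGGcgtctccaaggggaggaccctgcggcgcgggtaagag
Col4a5 (chrX:141475169-141475468, plus strand): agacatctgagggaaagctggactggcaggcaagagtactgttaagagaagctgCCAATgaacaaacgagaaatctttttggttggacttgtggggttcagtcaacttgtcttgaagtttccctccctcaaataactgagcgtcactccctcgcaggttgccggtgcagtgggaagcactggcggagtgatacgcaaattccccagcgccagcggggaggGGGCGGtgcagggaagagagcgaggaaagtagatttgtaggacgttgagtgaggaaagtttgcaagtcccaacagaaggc
Col4a6 (chrX:141474027-141474326, minus strand): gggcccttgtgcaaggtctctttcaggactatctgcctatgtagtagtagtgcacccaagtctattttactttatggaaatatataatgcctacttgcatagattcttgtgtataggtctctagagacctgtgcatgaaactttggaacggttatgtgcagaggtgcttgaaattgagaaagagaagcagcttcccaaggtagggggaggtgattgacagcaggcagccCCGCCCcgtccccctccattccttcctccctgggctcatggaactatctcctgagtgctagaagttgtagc
The Col4a1 start (11312826) and the Col4a2 start (11312805) are 21 bases apart, so that their windows overlap, as do the first bases of the 2 genes. The Col4a3 and Col4a4 starts are 72 bases apart. The Col4a5 and Col4a6 starts are 1343 bases apart. With the start itself as position 0, CCAAT is at -32 in the Col4a2 window and at -196 in that of Col4a5, and ATTGG is at -145 in that of Col4a1. The Col4a6 window holds neither. GGGCGG or CCGCCC is in all 4. The CCGCCC at 9 in the Col4a1 window and the GGGCGG at 7 in the Col4a2 window are the same bases. Over all 32851 RefSeq windows, a share of 37.4% hold CCAAT on either strand and 35.7% hold GGGCGG. The 40 chain genes found among them had 44 windows, of which 14 (31.8%) held CCAAT and 26 (59.1%) held GGGCGG. By gene, 14 of the 40 had CCAAT and 25 had GGGCGG. Such a match is a description of letters and does not show that a factor binds there.

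Levels also differed between the library sets, and the direction differed by class. The other chains had a median difference, first minus second set, of 0.55, the basement membrane chains of -0.49 and the fibrillar chains of -0.10, while that of all genes was 0.00. Among the basement membrane chains the median was -0.71 for type IV and 0.10 for laminin. In 8 of 53 chains the 6 libraries of the first set were all above the 9 of the second, where 12.8% of all genes were, and in 1 chain they were all below, where 12% of all genes were. The 8 were Col9a3 with a mean difference of 3.42, Col26a1 with 2.23, Col27a1 with 1.88, Col19a1 with 1.74, Col22a1 with 1.69, Col16a1 with 1.33, Lamb3 with 0.87 and Col9a1 with 0.84. The 1 below was Lamc1 with -1.22. In percent of the 53 chains these are 15.1% above and 1.89% below. Col1a1, Col3a1, Col4a2, Col6a1 and Col6a2 had differences of -1.19, -1.09, -1.12, -1.06 and -1.17 with overlap.

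The genes that make, bind and remodel these chains also held 0 calls in the 4 comparisons with Control, and most of them had a higher mean in AA. Of 29 tested genes for collagen synthesis and processing, such as the hydroxylases and the chaperone Serpinh1, 28 had a higher mean in AA than in Control, with a median of 0.37. In TSA 20 were higher with a median of 0.18, in MTX 18 with a median of 0.09 and in HMS-I1 15 with a median of 0.01. With the library set as a term these medians became 0.06 in TSA, -0.15 in MTX and -0.15 in HMS-I1. The list's highest gene, the hydroxylase subunit P4hb, was at 3053 to 4943 in AA and 2759 to 4161 in Control. Of the other interstitial matrix proteins 15 of 16 had a higher mean in AA (median 0.58), and 1 of them, the proteoglycan Vcan, had an unadjusted p under 0.05, with a difference of 0.69 (SE 0.31, limma adjusted p = 1.00). Other basement membrane proteins were higher in AA in 8 of 12 (median 0.21), receptors for collagen and laminin in 10 of 13 (median 0.43) and matrix proteases with their inhibitors in 8 of 9 (median 0.73). With the library set as a term these 5 AA medians became 0.16, 0.24, 0.11, 0.24 and 0.37. In TSA Timp4, an inhibitor of matrix proteases, had a difference of -3.05 (SE 1.14, unadjusted p = 0.0186, limma adjusted p = 0.848).

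Weighting the libraries changed the counts of calls. With limma's array quality weights 15 chains passed in AA, 6 higher and 9 lower, and 11 in TSA, 1 higher and 10 lower. Of all genes tested 37.1% passed in AA and 23.7% in TSA, so the chains' shares were no larger. That fit gave AA replicate 2 a weight of 38.8 and the other libraries 0.230 to 2.92, so that its AA mean rests almost on 1 library.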

How the data were processed

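The submitters' processing notes name FastQC 0.11.9, Salmon 0.12.0, DESeq2 1.34.0 and the build GRCm39. The authors deposited a single table of normalised counts, read here as a signal scaled between libraries by the authors. Raw counts and read depth are not known: 6.57% to 11.15% of low values were whole multiples of a library's commonest low value (tolerance 0.02), so a count test was not run. Summed normalised counts were 27491377 to 40648029 per library.

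Symbols were matched from a GRCm38 annotation (35825 of 36118 genes). Genes with a mean of at least 10 (17896) were fitted with limma 3.58.1 (R 4.3.3; lmFit, eBayes with trend, two-sided) on log2(value + 1), all 15 libraries in a model of 5 group means, with Benjamini-Hochberg adjustment and a threshold of 0.05. The script was tested on simulated data. The rule for naming took the 3 most abundant chains of each class, partner chains, the laminin chains (1 is not reported here) and the 2 chains with the smallest p in each direction of each treatment against Control; chains named otherwise were chosen after their values were seen. Lengths are of the longest protein-coding transcript, because the median length, planned first, fell on fragments for some genes. Alternatives were the pseudocount (0.5 and 5), the filter (none and 50), scaling, library set, replicate number, array weights and each library left out. Deviations from the group means correlated over 0.1 in 26 of 30 pairs of libraries with the same replicate number, including all 18 among the 4 treatments (0.13 to 0.76). The 4 exceptions were the pairs with Control replicate 2 (-0.58 to -0.30), a first-set library set against second-set libraries. Pairs with Control replicate 1 were at 0.41 to 0.52 and those with Control replicate 3 at 0.21 to 0.67. Replicate number and library set overlap, so these values do not show whether the numbers pair the libraries. Among the treatments the number 1 is also the first library set. The members and gene lists were chosen with earlier results of these data known.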

Additional observations from a re-analysis of the deposited data

How the results depend on the processing

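The count of chains past the adjusted threshold was 0 in every comparison under other pseudocounts, filters and scalings, with the library set as a term and with only the 2 groups compared in the model. With array quality weights it was 15 in AA, 11 in TSA, 6 over the pairs of treatments (all in TSA against AA) and 12 over the 5 groups, where 37.1%, 23.7%, 17.3% and 31.5% of all genes passed. Leaving out 1 library gave 0 to 2 chains in TSA and 0 to 1 over the pairs, and the highest values came without TSA replicate 1, where 5.54% of all genes passed in TSA and 3.44% in TSA against AA. With the library set as a term and TSA replicate 1 left out, chosen after seeing the data, they were 2 in TSA (5.64% of all genes), 12 over the pairs (3, 4 and 5 against MTX, HMS-I1 and AA, with 7.39%, 5.65% and 6.19% of all genes) and 1 over the 5 groups (3.37%). The fibrillar median in MTX was -0.29 to 0.24 when 1 library was left out. Within the first library set the basement membrane medians were -0.65 in HMS-I1 and -0.61 in TSA, and the fibrillar median was -0.91 in TSA. Within the second set they were 0.37 and 0.58, and the fibrillar medians were 0.33 in HMS-I1 and 0.12 in TSA. A fit on the second set only holds these 4 values by construction. The cause was not tested. With a replicate block 0 chains passed in all comparisons, alone or with the library set. Depth may limit low chains most in the first set, but read depth is not known.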
